A study of Homo sapiens with 6 samples.

Results

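A set of 10 genes of feedback on mitogen-activated protein kinase (MAPK) signalling were followed in CaSki cells with and without recombinant TGF-β1: the phosphatase genes DUSP1, DUSP4, DUSP5, DUSP6 and DUSP10, the Sprouty genes SPRY1, SPRY2 and SPRY4, the Sprouty-related gene SPRED1, and PHLDA1. They were chosen by name, with earlier results of these data known. All 10 had a probe set annotated to that gene alone, among 19775 genes with such a probe set. CaSki is an established human cervical squamous carcinoma line, so all samples share 1 genetic background. Of the 6 arrays, 3 were from untreated cells in medium without the recombinant protein and 3 from cells given it at 2 ng/mL. The sources used here give neither the time of treatment nor whether the 3 samples of a group were separate cultures, so the p-values given below reflect sample-to-sample scatter that may be technical.

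MAPK pathways carry signals from growth factor and stress receptors through kinase relays that end in ERK, JNK or p38. Cells limit these signals with genes that the pathways themselves induce: dual-specificity phosphatases (DUSP) remove the activating phosphates from the kinases, and Sprouty and Spred proteins act further up, between the receptor and RAS and RAF. TGF-β receptors signal mainly through SMAD transcription factors and also engage the MAPK relays, by routes that depend on the cell type.

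Of the 10 genes, 3 changed with TGF-β1, and not in the same direction. DUSP1 rose 3.21-fold, PHLDA1 was 1.80-fold lower and DUSP5 was 1.41-fold lower. The other 7 genes did not pass the test (limma over all 19775 genes, Benjamini-Hochberg adjusted p below 0.05). The DUSP1 rise was seen on its brightest probe set only, and its other 2 sets differed by -0.001 and 0.15 without passing. The DUSP5 call was lost in most fits with a single array left out. Among all genes 8.50% changed, 4.03% upward and 4.47% downward. SPRY1 gave different answers on its 2 probe sets: the brighter over the 6 arrays, which represents the gene, did not pass, and the other was 2.09-fold lower. The groups did not overlap for 5 of the 10 genes, against 29.2% of all genes. The median difference of the 10 genes was 0.097 on the log2 scale, beside -0.0027 for all genes, with 6 differences above 0 and 4 below. Values are log2 expression estimates, differences are treated minus untreated, and errors of differences are the moderated standard errors (SE) of limma.

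**Figure D1:**
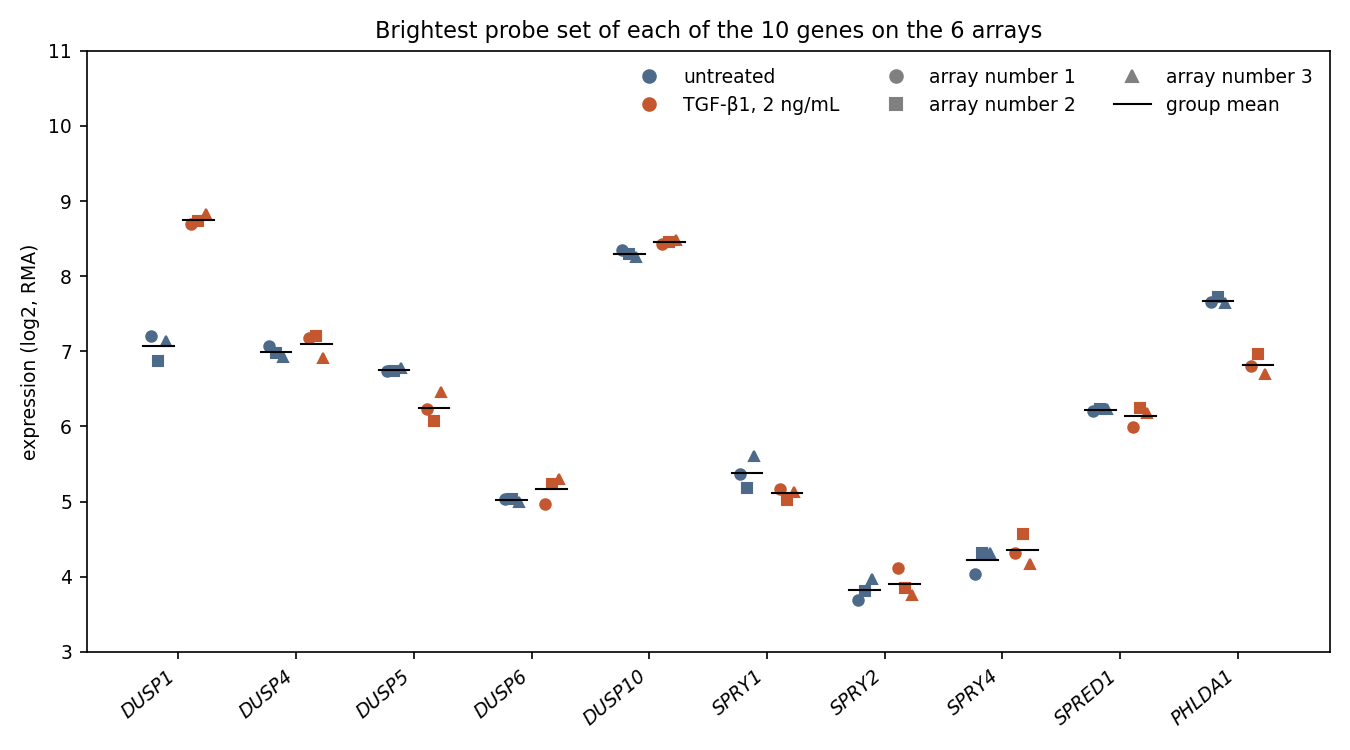
Expression (log2, RMA) of the brightest probe set of each gene on the 6 arrays; blue marks are untreated and orange marks TGF-β1-treated samples, the shape gives the array number, and black lines are group means. DUSP1 stands between 6.87 and 7.21 in untreated and between 8.70 and 8.82 in treated samples, and PHLDA1 and DUSP5 are lower in every treated than in every untreated sample.

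The labelled cell type was checked against its markers. All 7 measured epithelial markers (KRT5, KRT14, KRT8, KRT18, EPCAM, CDH1 and SFN) lay above the median over all probe sets. Their summed level was 75.3 to 76.0 in untreated and 75.8 to 77.4 in treated samples. Not all of them are particular to squamous cells, and 2 further listed markers, TP63 and KRT17, were not analysed here. Of these 7, KRT14 and KRT8 rose by 0.77 and 0.60 and EPCAM fell by 0.70 (limma adjusted p = 0.0027, 0.00342 and 9.5e-04). The 6 fibroblast markers summed to 22.5 to 23.8 and 23.6 to 24.0, and the 7 endothelial and leukocyte markers to 28.8 to 29.0 and 28.7 to 29.4. Of these, 3 of 6 and 3 of 7 lay above the median over all probe sets. Untreated means ran from 2.49 (LUM) to 4.70 (DCN) and from 2.76 (PTPRC) to 5.65 (PECAM1), and on this scale no probe set reads 0. Limma called 0 of the fibroblast markers, with 1 at an unadjusted p below 0.05, and 1 of the others, CDH5 (-0.41, adjusted p = 0.0299). The part of these markers in the results below was not tested. The ratio of 3′ to 5′ signal on control probe sets, which reflects RNA quality, was 1.19 and 1.15 (log2) on the arrays numbered 1 and 0.69 to 0.86 on the other 4, and its part in the results was not tested beyond the fits without both arrays numbered 1. SMAD7, the inhibitory SMAD that TGF-β induces, rose 3.17-fold.

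DUSP1 encodes a nuclear phosphatase that acts on p38, JNK and ERK and is switched on within minutes by growth factors and stress. Its brightest probe set, 201041_s_at, read 7.21, 6.87 and 7.14 in untreated and 8.70, 8.74 and 8.82 in treated samples. Every treated sample lay well above every untreated one, and the treated samples were the tighter group. The difference was 1.68 ± 0.10 (SE, n = 3 per group, limma adjusted p = 6.88e-05), from 7.07 ± 0.18 to 8.75 ± 0.06 (SD, n = 3), and 0.137% of genes had a larger difference in either direction. It stayed between 1.58 and 1.75 when each array was left out in turn.

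The other 2 probe sets of DUSP1 did not show the rise. Probe set 226578_s_at read 5.39, 5.36 and 5.56 in untreated and 5.73, 5.39 and 5.20 in treated samples, a difference of -0.001 (95% interval -0.31 to 0.31). Probe set 201044_x_at read 3.94, 4.28 and 4.57 in untreated and 4.25, 4.52 and 4.49 in treated samples, a difference of 0.15 (interval -0.20 to 0.51). Both sets overlapped between the groups, and both intervals lie below the rise of the brightest set. The level of 201044_x_at was close to the array medians, where RMA can compress differences. Whether this bears on its small difference was not tested, and detection was not measured. The mean of the 3 probe sets rose by 0.61. The suffix of each DUSP1 probe set marks possible matches to more than 1 transcript, so no set without such a mark was available for this gene. Probe sequences were not used here.

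The bases before the transcription start are shown for DUSP1, which rose, and for PHLDA1 and SPRY1, which had the largest falls on a probe set, to set the promoter of a gene that rose beside those of genes that read lower. Sequences are the 250 bases before the RefSeq start in GRCh38.p14, 5′ to 3′ on the strand of the gene, with motif matches in capitals; for SPRY1 the first of 2 listed starts is shown.
DUSP1, chr5:172771196-172771445, minus strand: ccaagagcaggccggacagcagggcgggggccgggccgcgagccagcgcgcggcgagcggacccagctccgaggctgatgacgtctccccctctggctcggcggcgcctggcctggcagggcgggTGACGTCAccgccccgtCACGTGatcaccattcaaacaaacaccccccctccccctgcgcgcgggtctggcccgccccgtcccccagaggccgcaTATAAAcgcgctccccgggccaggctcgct
PHLDA1, chr12:76031777-76032026, minus strand: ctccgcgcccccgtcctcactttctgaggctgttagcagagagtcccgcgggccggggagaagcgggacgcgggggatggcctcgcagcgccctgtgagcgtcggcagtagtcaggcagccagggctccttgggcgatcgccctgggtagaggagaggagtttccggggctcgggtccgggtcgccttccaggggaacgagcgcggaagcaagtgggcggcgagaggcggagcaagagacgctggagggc
SPRY1, chr4:123396545-123396794, plus strand: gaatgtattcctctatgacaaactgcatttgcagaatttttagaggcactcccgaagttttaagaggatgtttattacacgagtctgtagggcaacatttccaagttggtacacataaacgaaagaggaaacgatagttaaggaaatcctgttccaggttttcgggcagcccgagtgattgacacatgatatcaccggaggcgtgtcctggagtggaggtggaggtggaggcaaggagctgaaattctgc

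The DUSP1 stretch holds the cyclic AMP response element TGACGTCA starting 125 bases before the start, the E-box CACGTG at 108 bases and the TATA element TATAAA at 30 bases. The same search found these motifs in 1.65%, 6.34% and 10.7% of 35116 promoter windows of this length. No match to them, to the AP-1 site TGANTCA, the SMAD-type site CAGACA, the ETS site CCGGAAG or the CArG box was found in the PHLDA1 window or in the SPRY1 window shown, on either strand. The window of the second SPRY1 start has CCGGAAG at 67 bases. The DUSP1 window has no AP-1, SMAD-type, ETS or CArG match either. The windows of DUSP6, DUSP10, SPRY2, SPRY4 and SPRED1, which did not pass, hold no match to any of these motifs. Absence of a match is thus not particular to the genes that read lower. AP-1, SMAD-type, ETS and CArG matches occurred in 6.57%, 13.6%, 8.52% and 1.16% of all windows, so most windows lack each of them. The 3 DUSP1 matches do not overlap each other. Windows were matched for 8 of the 10 genes, with 12 starts. No window was read for DUSP4 or DUSP5, so DUSP5, which read lower, is left out of this comparison.

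DUSP5 encodes a nuclear phosphatase that acts on ERK and holds it in the nucleus. Its only probe set read 6.73, 6.74 and 6.77 in untreated and 6.23, 6.07 and 6.45 in treated samples. The untreated samples lay within a narrow band and all 3 treated samples lay below it, spread more widely (SD 0.02 and 0.19). The difference was -0.50 ± 0.10 (SE, n = 3 per group, limma adjusted p = 0.0227). The call was lost without any of the 3 untreated arrays (adjusted p = 0.0697, 0.0742 and 0.0858 without array 1, 2 and 3) and without treated array 1 or 2 (0.0605 and 0.0625), with differences of -0.50, -0.50, -0.48, -0.49 and -0.41; without treated array 3, the highest treated sample, the difference was -0.60 (adjusted p = 0.0121).

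DUSP4, DUSP6 and DUSP10 did not pass. DUSP4, a nuclear phosphatase close to DUSP1, read 7.07, 6.98 and 6.92 in untreated and 7.17, 7.21 and 6.91 in treated samples, a difference of 0.11 (95% interval -0.11 to 0.33, adjusted p = 0.549). The groups overlapped, because treated sample 3 was the lowest of all 6. Its other probe sets, 204015_s_at and 226034_at, differed by 0.04 and 0.10.

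DUSP6, a cytoplasmic phosphatase of ERK that is often read as a gauge of ERK activity, stood at 5.04, 5.03 and 5.001 in untreated and 4.96, 5.23 and 5.31 in treated samples. The difference was 0.14 (interval -0.08 to 0.37, adjusted p = 0.437), with treated sample 1 below all untreated samples and the other 2 above them. Probe set 208891_at, nearly as bright, differed by 0.14, and 208892_s_at by 0.25 (interval 0.02 to 0.48, adjusted p = 0.249 over all probe sets). For DUSP6, intervals of all 3 probe sets ended below 0.50, so a rise of the size of that of DUSP1 lies outside them.

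DUSP10, a phosphatase of JNK and p38, read 8.35, 8.30 and 8.25 in untreated and 8.42, 8.46 and 8.48 in treated samples. The groups did not overlap, but the difference was small at 0.16 (interval 0.00 to 0.31) and did not pass (adjusted p = 0.216). Its second probe set, 215501_s_at, differed by 0.15 with overlapping groups.

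**Figure D2:**
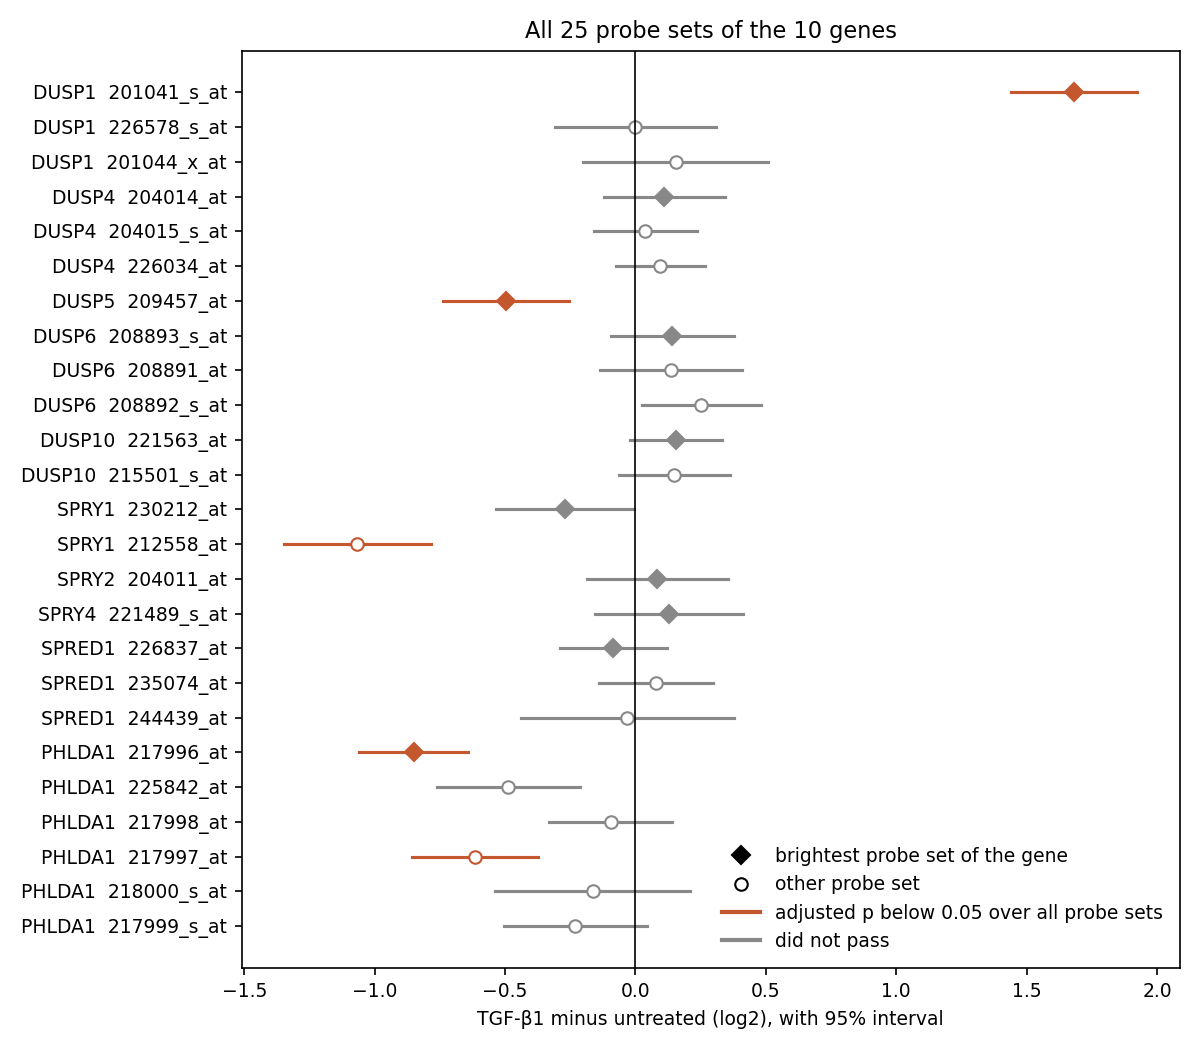
Difference between TGF-β1-treated and untreated samples (log2) with its 95% interval for the 25 probe sets of the 10 genes, from a fit on all 54613 probe sets that are not controls; diamonds are the brightest probe set of a gene and open circles the others, and orange marks an adjusted p below 0.05. Among the 15 other probe sets, 212558_at of SPRY1 and 217997_at of PHLDA1 passed, and the DUSP1 rise is seen on 1 of 3 probe sets.

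SPRY1 encodes a membrane-associated inhibitor of receptor tyrosine kinase signalling to RAS and ERK. Its probe set 230212_at, the brighter over all 6 arrays, read 5.36, 5.17 and 5.61 in untreated and 5.17, 5.03 and 5.13 in treated samples. The groups just failed to overlap, since untreated sample 2 and treated sample 1 were nearly level. The difference was -0.27 ± 0.11 (SE, n = 3 per group) and did not pass (limma adjusted p = 0.197).

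Probe set 212558_at of SPRY1 read 5.53, 5.78 and 5.60 in untreated and 4.82, 4.49 and 4.41 in treated samples. Here every treated sample lay clearly below every untreated one. The difference was -1.07 ± 0.12 (SE, n = 3 per group), with an adjusted p of 0.00241 in limma over 54613 probe sets, of which 3.24% passed. It passed without each array in turn, between -1.19 and -0.99. This set was singled out after its values were seen, with an untreated mean above that of the other set (5.64 and 5.38) and a treated mean below it (4.57 and 5.11). The mean of the 2 probe sets fell by 0.67 on the log2 scale and passed over all genes (adjusted p = 0.00262).

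SPRY2 and SPRY4, inhibitors of the same family, and SPRED1, which brings the RAS inhibitor neurofibromin to the membrane, did not pass. SPRY2 read 3.69, 3.81 and 3.97 in untreated and 4.12, 3.85 and 3.75 in treated samples, below the array medians in all 6 and overlapping between the groups. Its difference of 0.08 had an interval from -0.18 to 0.35, and its sign turned without treated array 1 (-0.022). SPRY4 read 4.04, 4.31 and 4.31 in untreated and 4.31, 4.57 and 4.17 in treated samples, a difference of 0.13 (interval -0.15 to 0.41). The deposited values of SPRY4 on untreated arrays 2 and 3 and treated array 1 were identical, and SPRY2 and SPRY4 each have a single probe set.

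SPRED1 read 6.21, 6.24 and 6.23 in untreated and 6.00, 6.24 and 6.18 in treated samples. Treated sample 1 was the lowest and the other treated samples were level with the untreated ones, a difference of -0.08 (interval -0.27 to 0.11). Its other probe sets, 235074_at and 244439_at, differed by 0.08 and -0.03. Of the Sprouty and Spred genes, the fall was thus seen on 1 probe set of SPRY1; whether SPRY1 differed from SPRY2, SPRY4 or SPRED1 was not tested.

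PHLDA1 encodes a protein with a pleckstrin homology-like domain whose transcript is raised by ERK signalling. Its brightest probe set, 217996_at, read 7.65, 7.72 and 7.65 in untreated and 6.80, 6.96 and 6.70 in treated samples. All 3 treated samples lay below all untreated ones, by more than the spread within either group. The difference was -0.85 ± 0.09 (SE, n = 3 per group, limma adjusted p = 9.2e-04), and 0.915% of genes had a larger one in either direction. It passed without each array in turn, between -0.92 and -0.79.

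There were 6 probe sets for PHLDA1, and all 6 read lower on average with TGF-β1. Probe set 217997_at read 5.67, 5.52 and 5.74 in untreated and 4.90, 4.98 and 5.20 in treated samples, a difference of -0.62 (adjusted p = 0.0176 over all probe sets), which passed in 2 of 6 fits with a single array omitted, those without untreated sample 2 or treated sample 3 (adjusted p up to 0.0837 in the other 4). Probe set 225842_at read 6.65, 6.59 and 6.76 in untreated and 5.93, 6.23 and 6.37 in treated samples, a difference of -0.49 that did not pass (adjusted p = 0.0724). The groups did not overlap on these sets. The remaining 3, 217998_at, 218000_s_at and 217999_s_at, overlapped and differed by -0.10, -0.16 and -0.23 without passing. The mean of the 6 probe sets was 0.41 lower (log2 difference -0.41, adjusted p = 0.014).

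**Figure D3:**
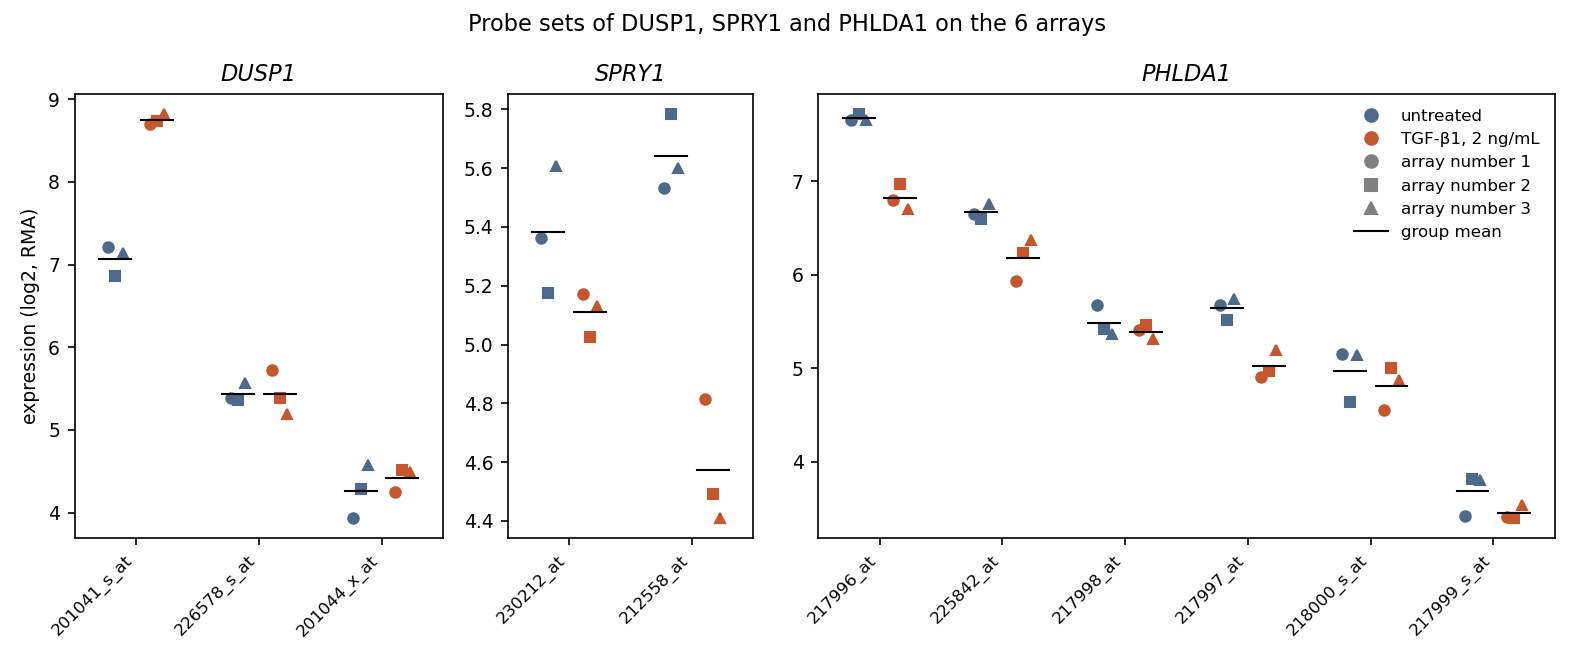
Expression (log2, RMA) of every probe set of DUSP1, SPRY1 and PHLDA1 on the 6 arrays, with untreated samples in blue, TGF-β1-treated samples in orange, array numbers by shape and group means as black lines; each panel has its own axis. The DUSP1 groups part on 201041_s_at and overlap on the other 2 sets. The SPRY1 group means differ by -1.07 on 212558_at and by -0.27 on 230212_at, where the groups nearly touch.

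The gap between probe sets of 1 gene was tested within each array, as the second brightest minus the brightest set, for the 7 genes with several sets. It differed between treated and untreated samples by -1.68 for DUSP1, -0.80 for SPRY1, 0.36 for PHLDA1 and 0.16 for SPRED1, without overlap of the groups in these 4 genes. For DUSP4, DUSP6 and DUSP10 it differed by -0.07, -0.01 and -0.01, with overlap. An exact two-sided permutation test gave p = 0.1 for the first 4, the smallest that 3 against 3 samples allow, or 0.175 after adjustment over the 7 tests. The gap was not computed for other genes, so no share over all genes stands beside the 4 without overlap.

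The genes around these feedback inhibitors were read from the same fit in 5 lists. Of 9 other dual-specificity phosphatases 1 rose and 2 fell, where 4.03% of all genes rose and 4.47% fell. Over 16 alternative fits, DUSP9, DUSP14 and DUSP2 passed in 13, 9 and 6. DUSP14 rose 1.31-fold, DUSP9, a cytoplasmic phosphatase of ERK, differed by -0.59 and DUSP2, a nuclear phosphatase, by -0.38. DUSP7 did not pass (0.17, adjusted p = 0.234). With single arrays left out, DUSP14 passed in 1 of 6 fits (adjusted p up to 0.0804) and DUSP2 in 0 of 6 (adjusted p up to 0.143). DUSP9 passed in 4 of 6, the exceptions being the fits that omitted untreated sample 1 (adjusted p = 0.0538) or untreated sample 3 (0.0581). The median of the 9 was 0.17.

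Of 15 other genes listed as acting on signalling between receptors and RAF, limma called 0, where 8.50% of all genes changed. Of these 15, 5 had an unadjusted limma p below 0.05. The list mixes inhibitors with other regulators such as PTPN11. IL17RD, which restrains fibroblast growth factor signalling, had the lowest p, with values of 4.80, 5.002 and 5.27 in untreated and 4.38, 4.65 and 3.83 in treated samples. Its groups did not overlap, but the samples scattered widely, and the difference of -0.74 had an adjusted p of 0.0655. ERRFI1, LRIG1 and PTPN11 differed by -0.25, -0.39 and -0.17 (adjusted p = 0.109, 0.124 and 0.181). The median of this list was -0.02. Among genes above the median level only, IL17RD passed (adjusted p = 0.0412). As the mean of all its probe sets it differed by -0.31 and did not pass (limma adjusted p = 0.189). It passed in 3 of 16 alternative fits.

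Of 29 measured genes of the kinase relays, 2 changed, or 6.90%, near the 8.50% of all genes. Of 14 measured genes of the ERK cascade limma called 0, with 2 at an unadjusted p below 0.05, and the median was -0.01. The adaptor gene GAB1 differed by -0.25 (adjusted p = 0.0618), the kinase gene MAP2K2 by 0.25 (0.0906), the scaffold gene KSR1 by -0.17 (0.23) and HRAS by 0.18 (0.252). Among genes above the median level only, GAB1 and MAP2K2 passed (adjusted p = 0.0257 and 0.0438). As the mean of all their probe sets they differed by -0.095 and 0.12 and did not pass (limma adjusted p = 0.408 and 0.444). Each passed in 2 of 16 alternative fits. Of 15 genes of the JNK and p38 cascades 0 rose and 2 fell, with a median of 0.01. MAP3K5, a stress-responsive kinase upstream of JNK and p38, read 6.38, 6.39 and 6.61 in untreated and 5.39, 5.73 and 5.88 in treated samples, a fall of every treated sample below every untreated one (-0.79, adjusted p = 0.00984), and it passed without each single array. MAP3K1 differed by -0.37 (adjusted p = 0.0208) but passed in 2 of the 6 fits without single arrays, and MAPKAPK2 and TAB2 did not pass (0.21 and -0.13). Of these lists, 5 ERK cascade genes and 3 JNK and p38 genes were not analysed here.

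Of 20 measured genes that ERK signalling induces early, 4 rose, 1 fell and 15 did not pass, where 4.03% of all genes rose and 4.47% fell, with a median of 0.08. IER3, a stress-induced survival gene, read 10.1, 10.2 and 10.3 in untreated and 11.8, 11.8 and 11.96 in treated samples, a rise of 1.65 (adjusted p = 3.57e-05). JUNB, an AP-1 subunit, rose by 0.75 and SPHK1, which makes sphingosine phosphate, by 0.79, while MYC fell by 0.97. These 4 passed without any single array. CCND1, named as the fourth rise after its value was seen, rose by 0.45 and passed in 2 of the 6 fits without single arrays (adjusted p up to 0.0619).

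**Figure D4:**
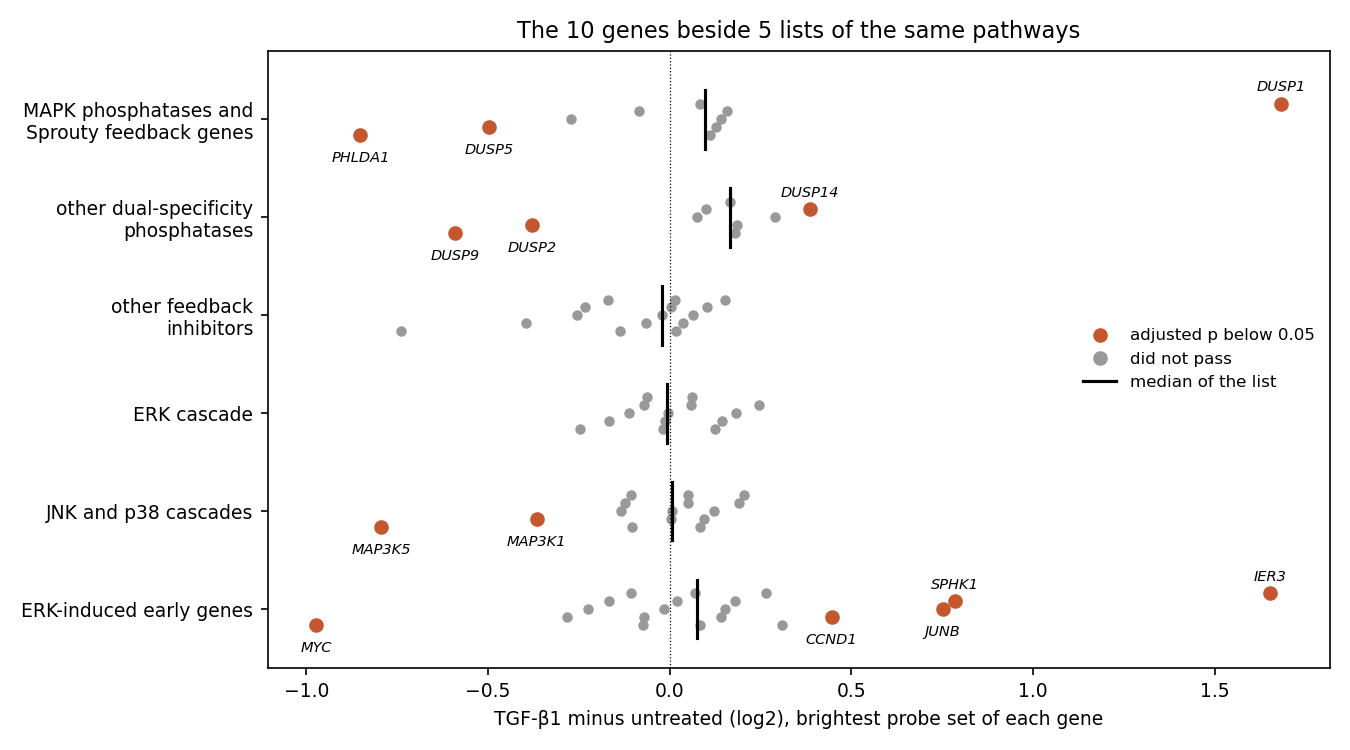
Difference between TGF-β1-treated and untreated samples (log2) of each gene's brightest probe set for the 10 feedback genes and 5 lists of related genes; orange points passed at an adjusted p below 0.05, grey points did not, and black bars are list medians. The medians run from -0.02 to 0.17, and DUSP1 and IER3 are the points farthest to the right, at 1.68 and 1.65.

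Over the 6 arrays, the genes whose centred values lay nearest to those of DUSP1 were MMP2, PTGS2 and TP53INP1, at Euclidean distances of 0.210, 0.213 and 0.245 (log2). On their brightest probe sets they rose by 1.65, 1.71 and 1.60, and as the mean of all their probe sets by 0.56, 1.46 and 0.56. As the arrays form 2 groups, the distance mostly picks genes with a difference of like size.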

How the data were processed

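Total RNA of 6 CaSki samples was hybridised to Affymetrix 3′ arrays with 54675 probe sets. The deposited values are log2 expression estimates which the authors made with Affymetrix Expression Console and RMA, per the submitters' processing notes; for their versions and options, the sources used here give nothing. That these are log2 units rests on the range of the numbers (array medians 4.15 to 4.18). RMA equalises intensities between arrays and compresses differences of dim probe sets; no detection calls were used here. Precision is limited by 3 arrays per group.

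Probe sets took the 1 gene symbol of the platform annotation, updated through the RefSeq table of GRCh38.p14 (0 changes, 54 without a row): 41091 had 1 symbol, 1801 several, 11721 none, and 62 were controls. Each gene took its brightest probe set, by the mean of the 6 arrays. Treated and untreated samples were compared by limma 3.58.1 (R 4.3.3, lmFit, eBayes, no covariate or filter), adjusted by Benjamini-Hochberg over 19775 genes, or 54613 probe sets for single probe sets. On simulated data of the 19775 genes of this comparison, 100 genes were changed 1.5-fold and 100 were changed 2-fold. The fit recovered 55% and 87% of them, with 5.33% false calls. Fewer genes were changed there than were called in the data, and genes were drawn independently. These rates therefore need not hold for the data.

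The genes and lists were chosen with earlier results of these data known. Named genes were the 10 genes, up to 4 per list with the smallest p, SMAD7, and the 3 genes nearest to DUSP1, which had the largest difference among the 10. Alternatives covered normalisation, probe set choice, dim probe sets, variance, weights, a replicate block and left-out arrays; refits of other probe sets and of list genes were added after seeing the data.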

Additional observations from a re-analysis of the deposited data

How the results depend on the processing

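DUSP1 passed in all 15 alternatives that gave it a value (0.61 to 1.78) and PHLDA1 in all 16 (-0.92 to -0.41). For both genes the smallest size is the mean of all probe sets. Each DUSP1 value rests on 201041_s_at, alone or within that mean, so none speaks to its other probe sets alone. DUSP5 passed in 10 of 16: left-out arrays gave -0.60 to -0.41, and it did not pass without both arrays numbered 1 (-0.49, adjusted p = 0.136). SPRY1 passed only as the mean of its probe sets (-0.67; -0.37 to -0.16 with left-out arrays). SPRY2 reversed without both arrays numbered 1 (-0.091; -0.022 to 0.16 with left-out arrays), KSR1 as the mean of its probe sets (0.024) and TAB2 without suffixed probe sets (0.12), none of them passing; the cause was not tested. DUSP4, DUSP6, DUSP10, SPRY4 and SPRED1 passed in none and kept their sign, but left-out arrays moved their differences: DUSP4 to 0.055 to 0.20, DUSP6 to 0.016 to 0.24, DUSP10 to 0.13 to 0.18, SPRY4 to 0.020 to 0.22 and SPRED1 to -0.14 to -0.013. The lowest DUSP6 value, without untreated array 3, is from its other bright probe set. Without suffixed probe sets DUSP1 and SPRY4 have no value, nor does SPRY2 among genes above the median level. The number of the 10 genes that passed ran from 2 to 4 over the alternatives.

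Over all genes, 1680 changed, against 1004 without suffixed probe sets, 2629 with a trended robust variance, 628 without both arrays numbered 1 and 766 to 1319 without single arrays. The 5 lists held 10 changed genes, 14 among genes above the median level, where fewer genes are tested, 6 without both arrays numbered 1 and 5 to 9 without single arrays, where fewer samples enter the fit. Deviations of same-numbered arrays correlated at 0.20, 0.06 and 0.09. Only the arrays numbered 1 exceeded 0.1, the minimum set for pairing. The main fit did not take the numbers as pairs, and whether same-numbered arrays belong together was not settled. With the replicate block in limma, 1280 genes changed and 3 of the 10 passed (DUSP1 1.68, adjusted p = 0.00178), and MAP3K1 was lost (adjusted p = 0.0519). No detection calls were made, so how far dim signal limits SPRY2, SPRY4 or the dimmer DUSP1 probe sets was not measured.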
